A study of Drosophila melanogaster with 9 samples.

Results

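Neuropeptide precursor genes encode the proteins from which neurons and endocrine cells cut the short signalling peptides of the fly. Of the 39 gene symbols on a curated list, from which the insulin-like peptides were left out, 38 were found among the 17562 gene IDs of both deposited tables. The remaining entry, hug, is a second spelling of Hug, which was found. The rule uses gene names alone.

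Neuropeptides are made as long precursors, cut by proprotein convertases, often amidated at their C-terminal end, and released from dense-core vesicles onto G-protein-coupled receptors. In the fly brain many of them come from a handful of large neurosecretory or interneuron cells, so a single gene can be abundant in RNA from a whole brain while being made by very few cells. As a class they are known for the control of feeding, sleep, water balance, metabolism and reproduction.

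RNA was measured by stranded poly(A) sequencing in brains dissected from adult Drosophila melanogaster females aged 4 to 6 days, in 3 groups of 3 libraries, each made from a pool of 20 brains. The first group was wild type without bacteria (WT control, on sucrose per the series' design text), the second wild type given the bacterium Ecc15 (Erwinia carotovora carotovora 15) by mouth (WT Ecc15), and the third PGRP-LB mutants given Ecc15 by mouth (PGRP-LB Ecc15). PGRP-LB encodes an enzyme that breaks down peptidoglycan, a polymer of bacterial cell walls sensed by the Imd immune pathway, and the series asks whether peptidoglycan alters gene expression in the brain. The protocol text gives 16 h of exposure and the design text gives 24 h. The labels do not say which part of the gene the mutation affects, and the deposited columns name the strain PGRP-LBD. No unexposed mutant library is among those used here, so genotype and exposure cannot be told apart where the mutant is set against WT control.

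Values are normalized counts as deposited, in a wild-type table and a PGRP-LB table that the authors normalized on their own scales and that both hold the WT control libraries. Libraries are called S1 to S3 within a group, as their columns are marked. The normalized counts of a library summed to 25.3 to 27.8 M (M, mega) and came from roughly 19.4 to 30.7 M counted reads by estimate, with the fewest in WT Ecc15 S2. PGRP-LB itself read 164, 120 and 151 in WT control and 687, 1359 and 721 in PGRP-LB Ecc15, which is higher in the mutant. Gene-level values sum all exons, so they do not check a mutation that removes or alters only part of the gene, and PGRP-LB Ecc15 stands here for the libraries labelled so. The eye pigment transporter gene w read 5, 6 and 13 in WT control and 11962, 18926 and 11128 in PGRP-LB Ecc15, so the strains also differed in w RNA. Whether this difference belongs to the mutation or to the rest of the strain is not stated in the labels. The antimicrobial peptide gene DptA, an Imd pathway target, had 27, 40 and 26 normalized counts in WT control, and in WT Ecc15 it had 3150, 2425 and 874, in the wild-type table. In PGRP-LB Ecc15 it read 73866, 134159 and 59179 in the other table. Brain markers were abundant in all libraries, with the pan-neuronal elav at 5457 to 7341 and the glial repo at 3865 to 4909 in the PGRP-LB table. Markers of tissues around the brain varied between libraries: 16 photoreceptor genes took 0.29% of the normalized counts in WT control S3 and 0.159% in PGRP-LB Ecc15 S3, and 0.43% to 1.47% in the other libraries. A list of 12 fat body genes took 0.33% in PGRP-LB Ecc15 S1, 1.93% in PGRP-LB Ecc15 S2 and 0.357% to 1.49% elsewhere.

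In unexposed brains the precursor genes as a class were abundant. They took 0.583%, 0.475% and 0.459% of the normalized counts in WT control S1, S2 and S3. Of the 38 genes, 27 had a mean of at least 100 normalized counts and 4 were at 0 in all 3 WT control libraries. Per kilobase (kb) of merged exons, which allows levels to be compared between genes, 22 members lay above the 90th percentile of all tested genes, from Nplp3 at the 91.4th to Nplp2 at the 99.7th. The following levels are WT control values of the PGRP-LB table in normalized counts per kb, with mean ± SD over n = 3.

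The highest was Nplp2, named as a neuropeptide-like precursor, with 23444, 28557 and 12192 in S1, S2 and S3 (21398 ± 8373). Ms (myosuppressin, an inhibitor of visceral muscle contraction) had 13518, 9386 and 8680 (10528 ± 2613). Dsk (drosulfakinin, a cholecystokinin-like satiety peptide) had 12149, 9199 and 10088 (10479 ± 1514). The libraries of Nplp2 and Ms overlapped through the low S3 value of Nplp2, and those of Ms and Dsk overlapped throughout. Pdf (pigment-dispersing factor, the output peptide of the circadian clock neurons) followed with 8956, 6907 and 7693 (7852 ± 1034). AstC (allatostatin C, a somatostatin-like peptide) had 7338, 5830 and 5249 (6139 ± 1078). All Pdf libraries were just below all Dsk libraries, whereas those of Pdf and AstC overlapped, as did those of AstC and the next gene, Capa. Capa, whose peptides act on the Malpighian (renal) tubules, had 3194, 5827 and 5216 (4746 ± 1378). Trissin, a disulphide-rich peptide with its own receptor, had 5303, 4189 and 4258 (4583 ± 624). Dh31, a calcitonin-like diuretic hormone, had 4642, 3929 and 4022 (4198 ± 387). Capa was lowest in S1, whereas Trissin and Dh31 were highest there, and the 3 genes overlapped.

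A dense middle group came next, with 13 genes from Nplp1 (4064 ± 233) down to ITP (1805 ± 154). It held the feeding peptides sNPF (3950 ± 508), NPF (3492 ± 694) and Hug (hugin, 3716 ± 806), the CRF-like diuretic hormone Dh44 (4013 ± 585), Mip (allatostatin B, 3820 ± 1137) and the stress hormone Crz (corazonin, 3477 ± 1415). Tk (tachykinin) at 2114 ± 128, SIFa (SIFamide) at 2057 ± 216 and AstA (allatostatin A) at 2011 ± 76.2 were level with each other within their spread. Orcokinin depended on the length used, at 3923 per kb of merged exons (place 12) and 5458 per kb of its longest transcript (place 6).

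Below these, the thyrostimulin subunit Gpb5 stood at 1173 ± 292, and the muscle-acting FMRFa and the gut-brain peptides CCHa2 and CCHa1 at 542 ± 52.8, 480 ± 113 and 359 ± 36.3. Proc (proctolin, a muscle-acting peptide) stood higher, at 2386 ± 559. Nplp4, Akh, CNMa and amn were low, at 59.97 ± 7.65, 49.8 ± 29.5, 27.0 ± 10.9 and 8.77 ± 2.79. The hormones tied to moulting and metamorphosis were low or absent in these adult brains. Eh (eclosion hormone) had 7.1, 216 and 72.4 per kb, CCAP (crustacean cardioactive peptide) 94.7 ± 10.8 and Ptth (prothoracicotropic hormone, the driver of ecdysone release in larvae) 56.7 ± 8.87. RYa, the precursor of RYamide, was the lowest detected member, with 1, 1 and 7 normalized counts in S1, S2 and S3 and 7.14 per kb. Burs and Pburs, the bursicon subunits that harden the cuticle after eclosion, ETH (ecdysis triggering hormone, made by tracheal endocrine cells) and Lk (leucokinin, a diuretic peptide) were at 0 in S1, S2 and S3. A value of 0 allows up to 3 counts in a library, or 2.72 to 3 normalized counts, by counting error alone. Exons of annotated antisense RNAs on the opposite strand cover 93.0% of Lk and 90.5% of ETH, and whether reads were counted by strand is not stated in the labels or headers. The antisense RNA over Lk was itself counted, at 17, 17 and 21 normalized counts in WT control, while Lk was at 0.

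**Figure D1:**
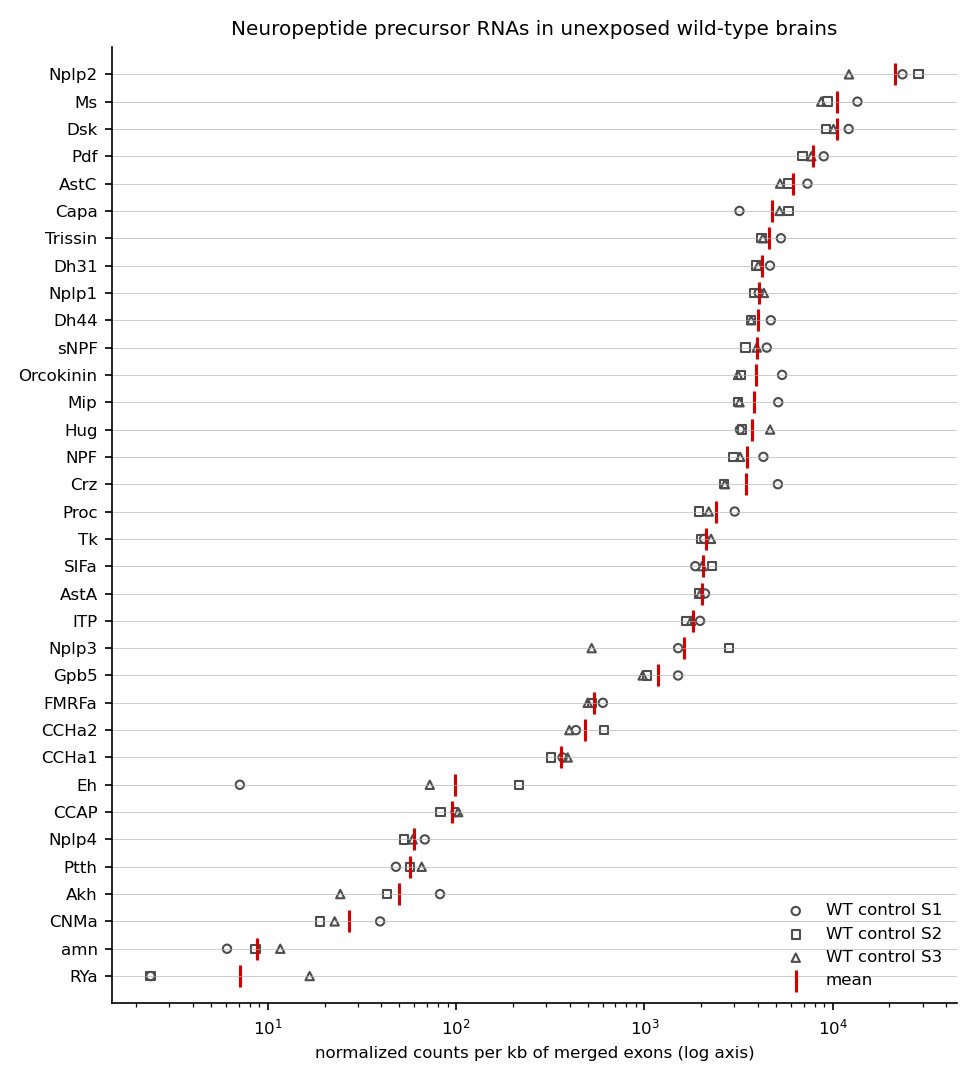
Level of each detected precursor gene in the 3 unexposed wild-type libraries, in normalized counts per kb of merged exons on a log axis, with open symbols for libraries S1 to S3 and a red bar for the mean. The levels run from 7.14 (RYa) to 21398 (Nplp2), and Eh, Nplp3 and RYa spread most between libraries.

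The WT control libraries differed among themselves in these genes. Among the 27 members with a mean of at least 100 normalized counts, S1 was the highest library for 17 (63.0%), against 37.3% of 8048 genes at that level. The median log2 difference of S1 from the mean of S2 and S3 was 0.23 for the members and 0.02 for all those genes. The median coefficient of variation between the controls was 14.6% for the members and 8.45% for all those genes. Crz was high in S1 alone, with 3342, 1732 and 1747 normalized counts in S1, S2 and S3. AstA, at 3060, 2852 and 2888, and Tk, at 3363, 3258 and 3658, varied little. Capa and SIFa went the other way, with S1 the lowest at 2220 and 979.

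Oral Ecc15 in wild-type flies left no precursor gene past the adjusted threshold. None of the 34 tested members rose and none fell at an adjusted p under 0.05 by limma, against 16 of 13085 genes higher (0.122%) and 0 lower (0.0%). Before adjustment 621 genes were higher and 332 lower at a p under 0.05. At an unadjusted p under 0.05 there were 4 members (11.8%), against 7.28% of all genes, namely CCHa2, Dh44, Hug and Nplp2. Groups did not overlap for Dh44, which was higher, 1 of 34 members (2.94%) against 6.93% of all genes. Nor did they for Hug and Ptth, which were lower, 2 of 34 (5.88%) against 5.67% of all genes. Neither share was far above that of all genes. In the authors' deposited table no member had an adjusted p under 0.05 in either direction, against 0.83% of genes higher and 0.113% lower. Of the other gene lists examined, only that of antimicrobial peptides had members called by limma in WT Ecc15, 7 of 15, and all 15 were called in PGRP-LB Ecc15 against WT control. The authors' deposited table also had the haemocyte genes Hml (adjusted p 1.056e-11), NimC1 (0.000687), eater (3.22e-05) and Sr-CI (2.914e-06) and the fat body genes CG10621 (5.049e-07) and Lsp2 (0.0265) higher in WT Ecc15. In bulk tissue a lower value can mean fewer cells of a type or less RNA per cell, and these cannot be told apart.

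Dh44 came closest among the diuretic hormones. It read 11411, 8956 and 9033 in WT control against 12052, 12519 and 12455 in WT Ecc15, in normalized counts of the wild-type table. All exposed libraries were above all controls, with S1 the nearest control (log2 change 0.34, SE 0.10, adjusted p 0.494). Hug, the precursor of pyrokinins that curb feeding in larvae, read 3361, 3457 and 4898 in WT control against 2947, 3294 and 2904 in WT Ecc15. The exposed libraries were lower, by a small margin from control S1 and S2 (log2 change -0.34, SE 0.14, adjusted p 0.677). Ptth read 54, 65 and 76 against 43, 51 and 43, with no overlap (log2 change -0.49, SE 0.23, adjusted p 0.686).

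CCHa2, a nutrient-responsive peptide in larvae, read 640, 905 and 594 in WT control against 843, 973 and 978 in WT Ecc15. The groups overlapped through control S2 (log2 change 0.41, SE 0.16, adjusted p 0.655). Nplp2 read 14492, 17711 and 7593 against 16708, 20931 and 26046, with control S2 inside the exposed range (log2 change 0.74, SE 0.31, adjusted p 0.677). The fat body list took 0.956%, 0.776% and 0.357% of normalized counts in WT control against 1.04%, 1.49% and 1.38% in WT Ecc15, lowest in control S3 as Nplp2 was. Its part in the Nplp2 values was not tested.

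Most members leaned upwards, with 27 of 34 log2 changes above 0 and 7 below. The median log2 change over the members was 0.13, against -0.001 over all genes tested. Leaving out each library in turn moved this median between 0.077 and 0.207. Markers of other cells went both ways in the same comparison. Above 0 were 12 of 13 haemocyte genes (median 0.467), 10 of 11 tested fat body genes (median 0.508) and all 13 tested digestive enzyme genes (median 1.138). So were 13 of 15 neuronal genes (median 0.047). Below 0 were 15 of 17 muscle genes (median -0.384) and 13 of 15 tested photoreceptor genes (median -0.405). The haemocyte list took 0.134% to 0.152% of normalized counts in WT control, against 0.158% to 0.194% after exposure. Hml, the haemocyte gene hemolectin, read 4533, 5237 and 4801 against 9481, 12077 and 8363, with no overlap. The part of these cells in the member values was not tested. SIFa read 993, 1224 and 1085 in WT control against 824, 866 and 1088 in WT Ecc15. Its exposed S1 and S2 libraries were below all controls and S3 was not (log2 change -0.25, SE 0.12, adjusted p 0.69). Tk, AstA, Dh31, ITP and Capa, which were called in the mutant, had log2 changes between -0.05 (SE 0.25, Capa) and 0.13 (SE 0.07, ITP) here, with overlapping groups.

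Akh, the adipokinetic hormone made by the corpora cardiaca next to the brain, mobilizes fat and sugar and had the most extreme values. It read 44, 24 and 13 normalized counts in WT control against 829, 1947 and 11 in WT Ecc15. In the authors' deposited table its log2 change was 5.094, with an adjusted p of 0.0612. Without WT Ecc15 S3 the adjusted p by limma was 0.0571. Libraries S1 and S2 of WT Ecc15 were far above all others, and S3 was below every control (log2 change 3.42, SE 1.72, limma adjusted p 0.697 with all libraries). The same S1 and S2 libraries were high in jhamt, the juvenile hormone enzyme of the neighbouring corpora allata, at 152 and 515, with 19 in WT Ecc15 S3 and 27, 6 and 15 in WT control. They were also high in the fat body gene Lsp2, at 366 and 627, with 71 in S3 and 25, 57 and 33 in WT control. The fat body list as a whole did not follow Lsp2, at 1.04%, 1.49% and 1.38% of normalized counts in WT Ecc15 S1, S2 and S3. On the scale of the PGRP-LB table its Yp1 read 65845, 90913 and 84882 there and apolpp 40957, 43247 and 56295. Mtp was lowest in S3, at 1492, 1732 and 1362. The list of 9 genes of the corpora cardiaca and neighbouring glands took 0.00307% to 0.0067% of normalized counts in WT control and 0.00507% to 0.00632% in WT Ecc15, and none of its 7 tested genes was called. Of the digestive enzyme genes 4, chosen after their values were seen, were also high in S1 and S2: in WT Ecc15 S1, S2 and S3 alphaTry read 80, 87 and 3, betaTry 94, 64 and 4, epsilonTry 17, 10 and 0, and Mal-A6 48, 44 and 5. In WT control alphaTry and betaTry reached 29 and 38 in S1, epsilonTry was at 0 in S1, S2 and S3, and Mal-A6 stood at 2 to 6. The list of 18 such genes took 0.0205% to 0.0307% of normalized counts in WT control, against 0.03%, 0.036% and 0.028% after exposure. Most of this share was LManII, on the scale of the PGRP-LB table. In WT control it read 7446, 6693 and 5103, of 7765, 6861 and 5245 for the list. In WT Ecc15 it read 7156.5, 8678.1 and 7199.8, of 7920, 9369 and 7339. The share therefore says little of the other genes of the list. How much gland or gut material entered these libraries was not tested. Nplp3 was as uneven, at 823, 1538 and 288 against 59, 112 and 1308 (log2 change -1.79, SE 1.13), and Eh had a log2 change of -1.49 (SE 1.09).

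**Figure D2:**
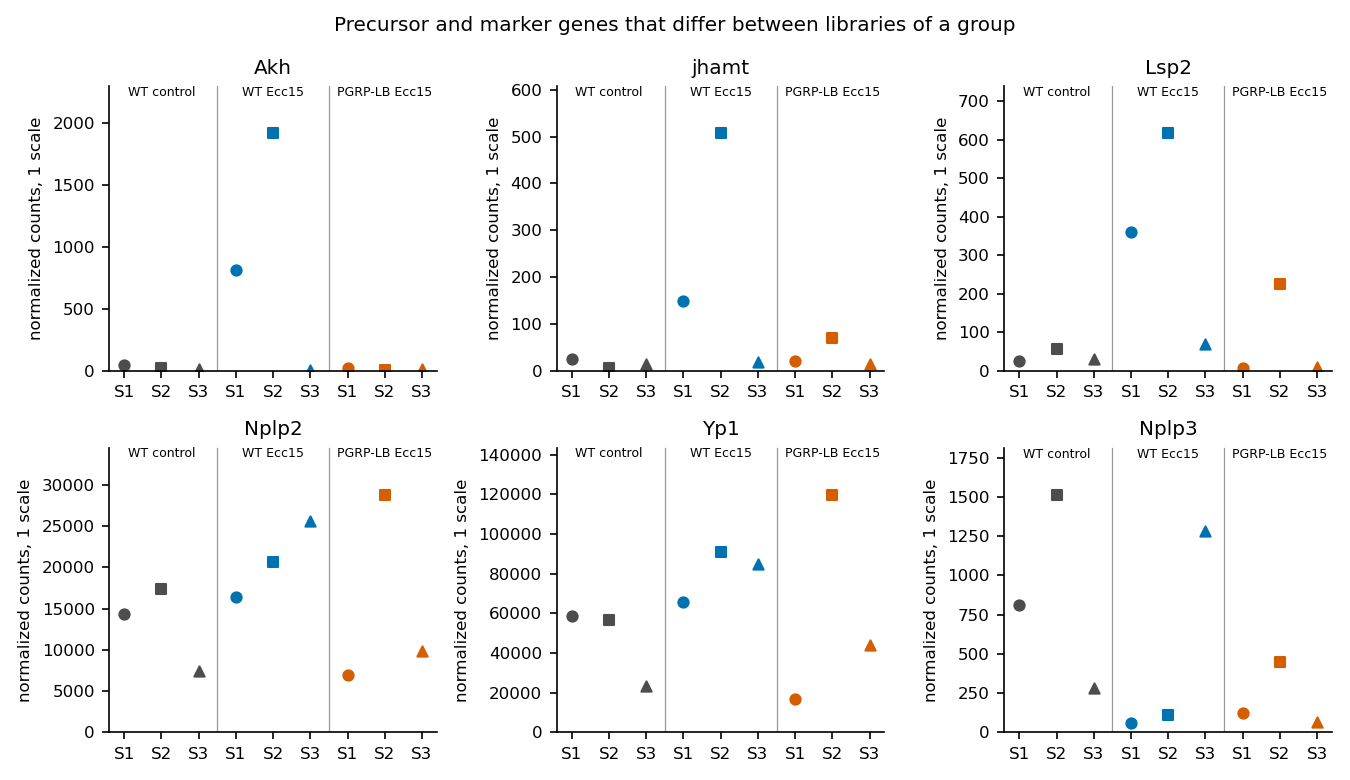
Normalized counts of 3 precursor genes (Akh, Nplp2, Nplp3) and of 3 marker genes (jhamt of the corpora allata, Lsp2 and Yp1 of the fat body) in each of the 9 libraries, with the WT Ecc15 values brought to the scale of the PGRP-LB table through the shared controls. Akh, jhamt and Lsp2 are high in WT Ecc15 S1 and S2, and Nplp2 and Yp1 are both highest in PGRP-LB Ecc15 S2.

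In exposed PGRP-LB mutants 8 precursor genes differed from unexposed wild type, and most of these were lower. Tk and AstA rose, by 1.39-fold and 1.246-fold. SIFa, Capa, Dh31, ITP, Hug and Ptth fell, SIFa and Capa to 0.422 and 0.470 of the control level. These are 2 of 34 members higher (5.88%), against 9.65% of all genes, and 6 lower (17.6%), against 6.26% of all genes. No test of the list was made, and both counts moved when a library was left out. Members higher numbered 3 without WT control S1 and 1 without WT control S2, PGRP-LB Ecc15 S1 or PGRP-LB Ecc15 S2. Members lower numbered 2 without PGRP-LB Ecc15 S1 or S3 and 3 without WT control S2 or S3.

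SIFa encodes SIFamide, a peptide of a few large neurons of the pars intercerebralis that acts on feeding, mating and sleep (2R, 24577566 to 24578143, minus strand). It read 979, 1204 and 1063 normalized counts in WT control and 357, 497 and 528 in PGRP-LB Ecc15. Every mutant library was far below every control (log2 change -1.25, SE 0.16, adjusted p 0.00329). SIFa shares 21.1% of its exon bases with Start1 on the opposite strand, which read 1135, 1138 and 1283 in WT control and 1198, 1221 and 1204 in PGRP-LB Ecc15 (adjusted p 0.824).

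Among the peptides of water and ion balance, Capa (3R, 29912991 to 29914346, minus strand) read 2220, 4050 and 3625 in WT control and 1404, 1733 and 1387 in PGRP-LB Ecc15. The groups were apart, with control S1 far below the other controls (log2 change -1.09, SE 0.22, adjusted p 0.018). Without WT control S2, WT control S3, PGRP-LB Ecc15 S1 or PGRP-LB Ecc15 S3 Capa lost its call, with adjusted p up to 0.0778. Most Capa cells of the adult fly lie in the ventral nerve cord. Of a list of 5 marker genes for it, 4 were tested and none was called. The posterior abd-A and Abd-B were at 0 to 4 normalized counts in these libraries. Ubx read 19, 24 and 46 in WT control and 16, 17 and 16 in PGRP-LB Ecc15, with the groups apart. Antp, at 17, 35 and 37 against 24, 37 and 39, and tsh, at 283, 236 and 310 against 233, 264 and 248, overlapped. The part of ventral nerve cord tissue in the Capa values was not tested. Dh31 (2L, 8491868 to 8506845, minus strand) read 6011, 5088 and 5209 against 3891, 3691 and 4129. All mutant libraries were below all controls, at 0.719 of the control level (log2 change -0.48, SE 0.08, adjusted p 0.0103). ITP, the ion transport peptide that limits water loss (2R, 24537421 to 24558961, plus strand), read 9249, 7841 and 8278 against 6101, 6671 and 6102. The groups were apart and each was tight (log2 change -0.42, SE 0.08, adjusted p 0.0132). Dh44, at 10194, 9640 and 9536 in the mutant against 11261, 8809 and 8848, overlapped WT control (log2 change 0.03, SE 0.10, adjusted p 0.871). Gpb5 overlapped it too, at 1092, 1052 and 1019 against 1154, 791 and 748. Lk was at 1, 1 and 3 normalized counts in the mutant, at or under the limit that a count of 0 allows.

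Tk encodes the tachykinins, modulators of olfaction, aggression and gut lipid handling (3R, 11994175 to 12005473, minus strand). It read 3363, 3258 and 3658 in WT control and 4733, 4558 and 4986 in PGRP-LB Ecc15. Every mutant library was above every control (log2 change 0.47, SE 0.07, adjusted p 0.00506). AstA, a peptide that inhibits feeding and promotes sleep (3R, 24760530 to 24765071, minus strand), read 3060, 2852 and 2888 against 3796, 3683 and 3485. The groups were apart here as well (log2 change 0.32, SE 0.06, adjusted p 0.0153). AstA lost its call without WT control S2, PGRP-LB Ecc15 S1 or PGRP-LB Ecc15 S2, with adjusted p up to 0.065. ITP lost its call without PGRP-LB Ecc15 S1 or S3, with adjusted p up to 0.06.

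Hug (3R, 12526188 to 12529076, plus strand) read 3317, 3400 and 4798 in WT control and 2280, 2481 and 2870 in PGRP-LB Ecc15. The groups were apart, with control S3 above the rest (log2 change -0.58, SE 0.16, adjusted p 0.0479). Ptth (2L, 575711 to 576896, minus strand) read 54, 64 and 74 against 30, 37 and 32. These are low values that did not overlap (log2 change -0.93, SE 0.25, adjusted p 0.0459). Both stood just inside the threshold and lost it when any single library was left out, with adjusted p up to 0.147 for Hug and 0.123 for Ptth. With all libraries kept, Hug lost its call with no filter on low values (adjusted p 0.0534) and with robust moderation (0.0524), and Ptth with no filter on low values (0.0553). Both were also the members whose groups were apart and lower in WT Ecc15, a comparison that uses the same WT control libraries.

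**Figure D3:**
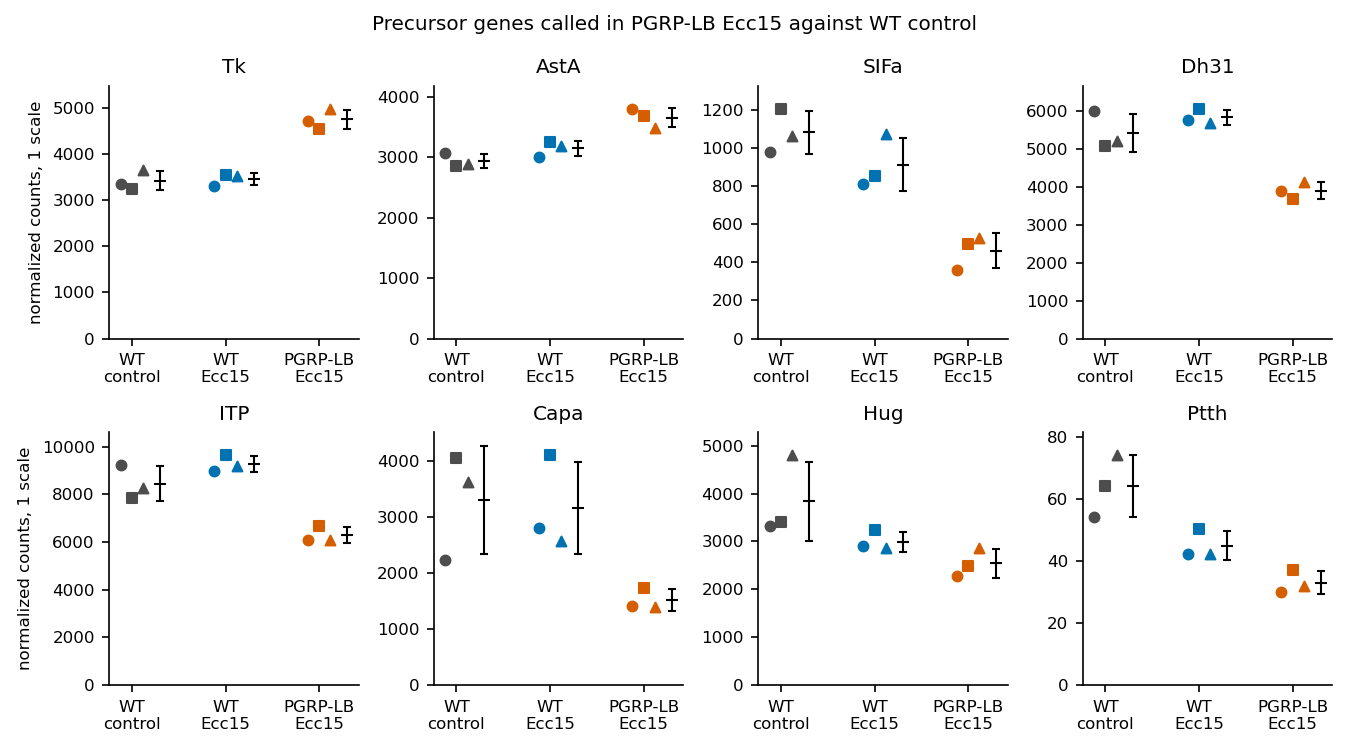
Normalized counts, on the scale of the PGRP-LB table, of the 8 precursor genes called in PGRP-LB Ecc15 against WT control, with circles, squares and triangles for libraries S1, S2 and S3 and black bars for mean ± SD. The mutant libraries lie above all control libraries for Tk and AstA and below all of them for the other genes.

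In the authors' deposited table AstA and Tk were higher, 2 of 36 members with an adjusted p (5.56%), against 9.03% of genes. Lower there were 7 members (19.4%), against 6.19% of genes, namely AstC, Capa, Dh31, Eh, Hug, ITP and SIFa. AstC read 8820, 7007 and 6309 in WT control and 4834, 6207 and 5819 in PGRP-LB Ecc15. The groups were apart by the gap between control S3 and mutant S2 (log2 change -0.39, SE 0.14, limma adjusted p 0.114; 0.0452 in the authors' deposited table). Eh, the eclosion hormone, read 5, 152 and 51 against 13, 15 and 8. Control S1 was below all mutant libraries and the other controls were above them (log2 change -1.52, SE 1.08, adjusted p 0.381; 0.0348 in the authors' deposited table). Without WT control S1 the adjusted p of Eh by limma was 0.0312.

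Groups were apart for 3 members with the mutant higher (8.82%), against 18.8% of genes, and for 10 with the mutant lower (29.4%), against 16.9% of genes. Beside the called genes these were amn, the amnesiac precursor tied to memory and sleep, at 24, 34 and 46 against 52, 50 and 51, and, lower, AstC, Nplp1, Pdf and Trissin. Nplp1 read 10925, 10375 and 11629 against 9476, 9378 and 9855 (log2 change -0.20, SE 0.06, adjusted p 0.0809). Pdf read 6090, 4697 and 5231 against 4552, 4458 and 4577 (log2 change -0.23, SE 0.10, adjusted p 0.152). Trissin read 2922, 2308 and 2346 against 1872, 2228 and 2199 (log2 change -0.26, SE 0.11, adjusted p 0.169). For these 3 genes the margin between the nearest libraries was small, and control S1 was not the nearest in any.

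Several of the most abundant precursors gave overlapping groups. Ms read 15924, 11057 and 10225 in WT control and 9261, 11111 and 8848 in PGRP-LB Ecc15 (log2 change -0.33, SE 0.17, adjusted p 0.244). Dsk read 6913, 5234 and 5740 against 5320, 6436 and 5767 (log2 change -0.02, SE 0.12, adjusted p 0.914). The feeding peptides NPF and sNPF had log2 changes of 0.02 (SE 0.14) and 0.15 (SE 0.10). Nplp2 read 14301, 17420 and 7437 against 6961, 28763 and 9825, and its order over the mutant libraries was that of Yp1, a yolk protein gene of the fat body, at 16730, 119662 and 43990. The orders differed in WT control, where Yp1 read 58508, 56574 and 23315. They also differed in WT Ecc15, where Nplp2 was highest in S3 and Yp1 in S2. Nplp3 read 812, 1513 and 282 against 126, 446 and 69 (log2 change -2.15, SE 0.80, adjusted p 0.115), in libraries where the photoreceptor list took 1.29%, 1.47% and 0.29% against 0.635%, 0.531% and 0.159%. The part of fat body and retina tissue in these values was not tested. The 12 members not yet named in this comparison were not called, with log2 changes from -1.23 (SE 0.71, Nplp4) to 0.54 (SE 0.28, CCHa2). Crz, at 3342, 1732 and 1747 against 1870, 2376 and 1909, had control S1 above every other library and the other controls below every mutant library.

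Over the 34 tested members the median log2 change was -0.15, with 13 above 0 and 21 below, against a median of 0.01 over all genes. This median rests on WT control S1: without that library it was 0.0, with 18 members above 0 and 17 below among 35 tested. Members took 0.403%, 0.492% and 0.423% of the normalized counts in the mutant, where the 15 antimicrobial peptide genes took 1.81%, 3.02% and 1.55%. Without Nplp2 the members took 0.377%, 0.388% and 0.386% in the mutant, against 0.527%, 0.408% and 0.43% in WT control. In that share every mutant library was below every control. The summed normalized counts themselves overlapped, at 100312, 107921 and 102991 in the mutant against 133153, 106841 and 109710 in WT control. Other cell markers moved in the same comparison. Of 13 glial genes 6 fell (Gs2, Mdr65, alrm, axo, nrv2 and wrapper) and Indy rose, of 13 haemocyte genes Col4a1, NimC4 and vkg fell, and of 17 muscle genes Act79B and sls rose. Among markers of further tissues, nvd of the steroid-making glands, 3 of 12 fat body genes (Apoltp, CG31769 and Fbp2) and 3 digestive enzyme genes (Amy-d, Amy-p and Mal-A6) rose. Very low values underlie the calls of nvd, at 1, 0 and 0 against 8, 10 and 8, and Fbp2, at 0, 0 and 0 against 8, 5 and 9. No photoreceptor gene was called by limma, with all 15 tested below 0 and a median of -1.204, and norpA was lower in the authors' deposited table (adjusted p 0.0169). Of 15 neuronal genes VGlut rose by 0.24 (SE 0.06, adjusted p 0.0445) and VAChT, the vesicular acetylcholine transporter, fell by 0.675 on the log2 scale (SE 0.06, adjusted p 0.000496), with a median of 0.004 for the list. The glial list took 0.663% to 0.695% of normalized counts in WT control and 0.507% to 0.549% in the mutant. For the muscle list these ranges were 0.0404% to 0.0964% and 0.12% to 0.185%, and for the neuronal list 1.36% to 1.54% and 1.28% to 1.41%. The part of cell composition in the precursor changes was not tested.

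**Figure D4:**
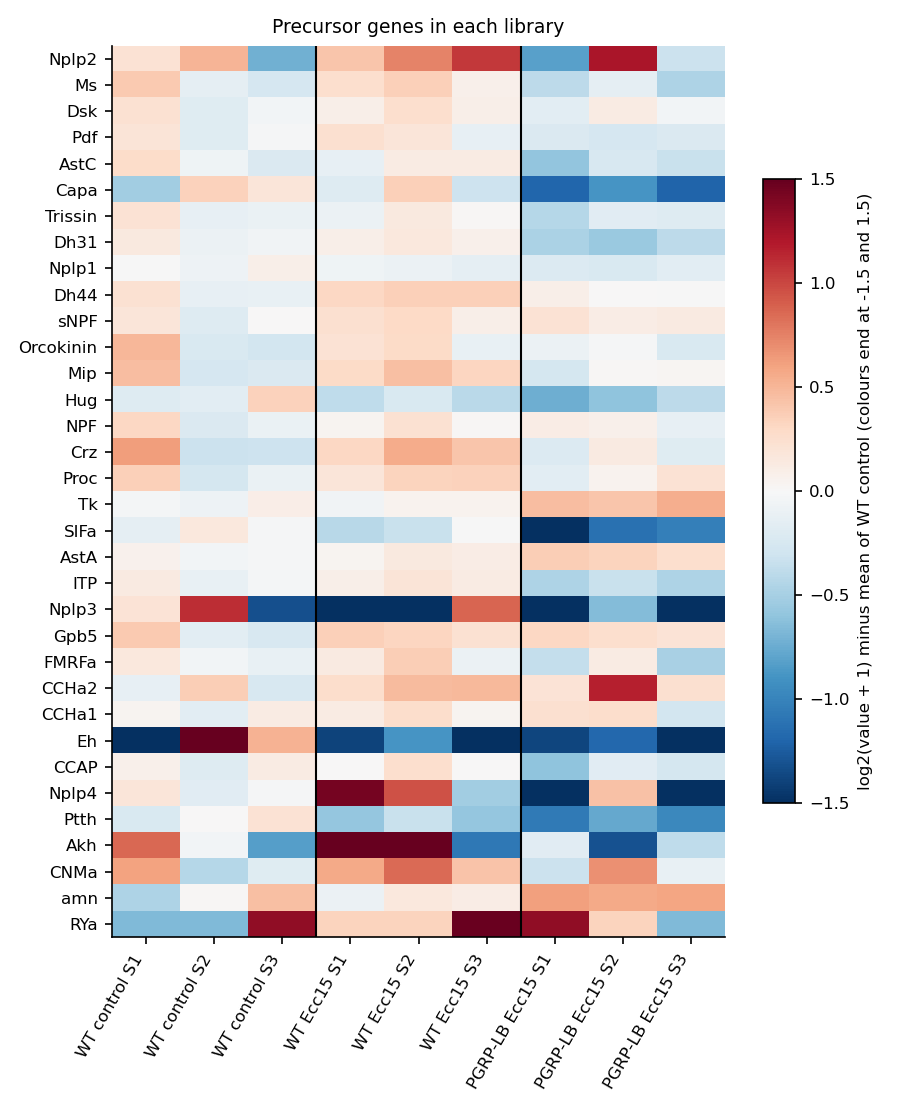
Each detected precursor gene (rows, by level) in each of the 9 libraries (columns), as log2(value + 1) minus the mean of the WT control libraries on the scale of the PGRP-LB table, with colours ending at -1.5 and 1.5. SIFa and Capa are blue in all PGRP-LB Ecc15 libraries, Tk and AstA are red in them, and Akh is red in WT Ecc15 S1 and S2 and blue in S3.

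Exposed mutants and exposed wild type share the bacterium and differ in strain, so this comparison does not involve exposure alone. The 2 exposed groups stand in tables that were normalized separately, and they were fitted together with limma after the wild-type table was brought to the other scale by dividing by 1.0167, the middle of the ratios of the 3 shared controls. It shares the mutant libraries with the preceding comparison. Again AstA and Tk were higher (5.88% of members, against 9.72% of genes), and 6 members were lower (17.6%, against 7.1% of genes): Capa, Dh31, Dh44, ITP, Ms and SIFa. Of the 34 members 30 had a log2 change below 0 and the median was -0.345, against 0.0 over all genes. Without any single library this median stayed between -0.374 and -0.293. Members called lower numbered 10 without WT control S1 and 3 without WT Ecc15 S2, PGRP-LB Ecc15 S1 or PGRP-LB Ecc15 S3. Members called higher numbered 1 without any exposed library other than PGRP-LB Ecc15 S3. Cell markers moved here too: 9 of 17 muscle genes were higher (median 1.775), 6 of 13 haemocyte genes were lower (median -0.855), and of 13 glial genes 5 were lower and Indy was higher (median -0.265). Of 15 neuronal genes VAChT was lower (median -0.071), and the 15 tested photoreceptor genes had a median of -0.706 with none called. Of 12 fat body genes 8 were below 0 (median -0.604), and CG31769 was called higher. Of 14 tested digestive enzyme genes 10 were below 0 (median -0.787). Among these LManII and Jon66Cii were called lower, and of the other 4 Amy-d and Amy-p were called higher. LManII was abundant in both groups, at 7156.5, 8678.1 and 7199.8 in WT Ecc15 and 4421, 6201 and 4799 in the mutant. Jon66Cii was very low, at 3.9, 3.0 and 4.9 against 0, 0 and 1. The part of cell composition in this comparison was not tested.

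SIFa was 911 ± 140 in WT Ecc15 and 461 ± 91.1 in PGRP-LB Ecc15 (n = 3 each; log2 change -0.99, SE 0.16, adjusted p 0.00287). Dh31 was 5844 ± 193 and 3904 ± 219 (log2 change -0.58, SE 0.07, adjusted p 0.000643). ITP was 9270 ± 339 and 6291 ± 329 (log2 change -0.56, SE 0.07, adjusted p 0.000655). These 3 genes kept their call under all 16 alternatives, as did Tk, at 3466 ± 136 and 4759 ± 215 (log2 change 0.46, SE 0.06, adjusted p 0.000984). Capa was 3152 ± 823 and 1508 ± 195 (log2 change -1.04, SE 0.24, adjusted p 0.0158). AstA was 3145 ± 127 and 3655 ± 157 (log2 change 0.22, SE 0.06, adjusted p 0.0263). Capa lost its call without WT Ecc15 S2 or without PGRP-LB Ecc15 S1 or S3, at most at 0.0575, and AstA without any exposed library other than PGRP-LB Ecc15 S3, and under quantile normalization, at most at 0.102.

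Dh44 was 12139 ± 249 in WT Ecc15 and 9790 ± 354 in PGRP-LB Ecc15 (log2 change -0.31, SE 0.09, adjusted p 0.043). In this gene the mutant stood at the level of WT control and the exposed wild type stood above both. Ms was 14271 ± 1415 and 9740 ± 1205 (log2 change -0.55, SE 0.16, adjusted p 0.0442). Both calls were near the threshold: Dh44 lost its call without any exposed library and under quantile normalization, with adjusted p up to 0.128. Ms lost it without any exposed library other than PGRP-LB Ecc15 S2, without WT control S2 and with robust moderation, with adjusted p up to 0.148. Akh was high in WT Ecc15 S1 and S2 alone and read 21, 9 and 18 in the mutant (log2 change -4.04, SE 1.56, adjusted p 0.114).

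**Figure D5:**
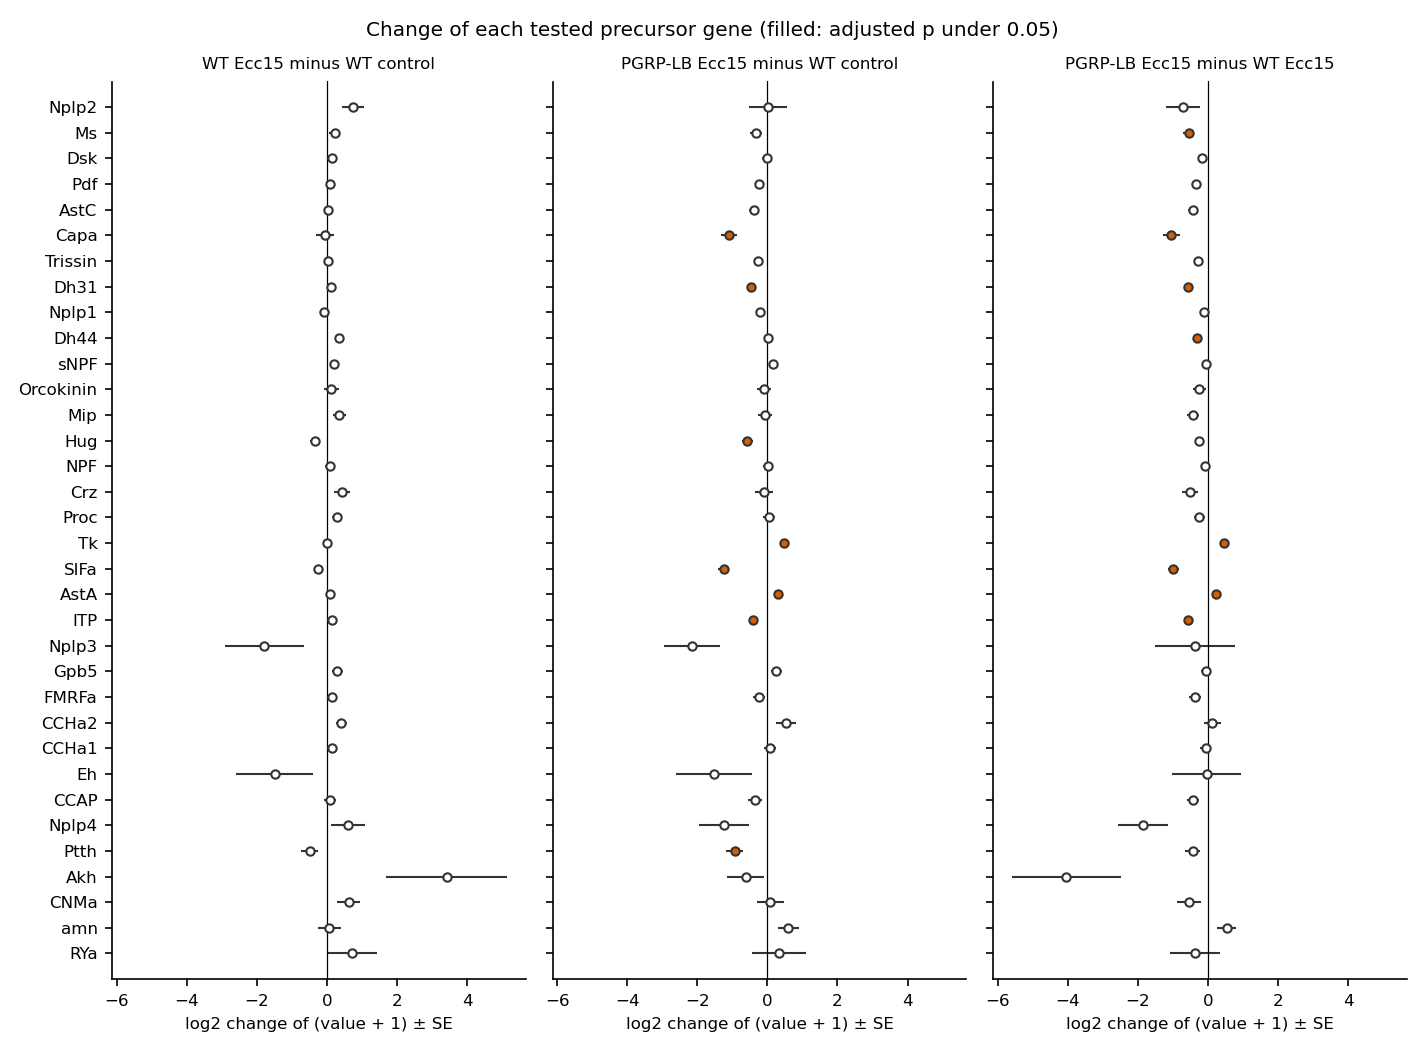
Log2 change of (value + 1) with its SE for each of the 34 tested precursor genes in the 3 comparisons, ordered by level, with filled symbols for an adjusted p under 0.05. No symbol is filled in the left panel, and the middle and right panels share filled symbols for Tk, AstA, SIFa, Capa, Dh31 and ITP.

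Genes that cut, modify and degrade peptides were examined beside the precursors. Of 16 such genes none was called in WT Ecc15, where their log2 changes ran from -0.14 (Nep4) to 0.10. In PGRP-LB Ecc15 QC, a glutaminyl cyclase that forms N-terminal pyroglutamate, rose. It read 335, 350 and 284 in WT control and 1267, 1376 and 1037 in the mutant (log2 change 1.92, SE 0.13, adjusted p 0.00024). The peptidase genes Nep4 (9494, 9981 and 8865 against 5622, 6320 and 7168; adjusted p 0.00963) and Ance (922, 928 and 876 against 582, 630 and 748; adjusted p 0.0241) fell. The other 13 genes of the list were not called by limma, and of these unc-104, a kinesin that carries dense-core vesicles, was lower in the authors' deposited table (log2 change -0.183, adjusted p 0.0371). Among them the prohormone convertase gene amon had a log2 change of 0.13 (SE 0.08) and the amidating enzyme gene Phm one of -0.11 (SE 0.08). Of 5 further peptide hormone genes, Gpa2, the partner subunit of Gpb5, fell from 223, 187 and 219 to 121, 121 and 102 (log2 change -0.87, SE 0.16, adjusted p 0.0118). Gpb5 did not pass the threshold, with a log2 change of 0.26 (SE 0.16, adjusted p 0.317).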

How the data were processed

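Poly(A) RNA sequencing of 9 brain libraries in 3 groups was used as processed by the authors. The submitters' processing notes name HISAT2, featureCounts, HTSeq and DESeq2 without their roles. The build, the annotation and the use of strand in counting are not stated there. The deposited values are whole numbers in a sheet titled raw data, but the control columns differ between the 2 tables by a constant factor (medians 1.0133, 1.0167 and 1.021), so they are treated as normalized counts that the authors rounded, a score rather than a count. The authors' log2 fold change and adjusted p-value, per the file headers, are quoted in sentences that name the authors' deposited table. The marks S1 to S3 of the columns have no match among the replicate numbers of the titles. Pools held separate brains, but nothing says whether flies were reared apart, so p-values measure the spread between these libraries.

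Each table was fitted by limma with a mean-variance trend (version 3.58.1 under R 4.3.3), using log2(value + 1) of the genes averaging at least 1, two-sided, with Benjamini-Hochberg adjustment over all genes and a threshold of 0.05. "Called" means past it. Changes on this scale understate those of low genes. An exact permutation test of 3 against 3 libraries has 0.1 as its smallest p. PGRP-LB Ecc15 was compared with WT Ecc15 in a joint fit of all libraries. Counted reads were estimated from missing whole numbers at low values, a step tested on simulated data, as was the fit. Gene lengths and positions are from the BDGP6 annotation (Ensembl release 115), in which 16839 of 17562 gene IDs matched 1 symbol; 4 IDs had been turned into dates. The authors' build may differ.

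The precursor genes, the other gene lists and the tests were chosen with earlier results of these data known. Values in every library were given for members called by limma or in the authors' deposited table, for the 8 highest and 5 lowest by level, and for those whose groups did not overlap in both tables, and for further members chosen after their values were seen. Of the other lists, members past the threshold, and a few chosen after their values were seen, were named, and PGRP-LB and DptA were checks. Alternatives were other pseudocounts (0.5, 5), filters (none, mean of at least 10), scalings and moderation, and leaving out each library.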

Additional observations from a re-analysis of the deposited data

How the results depend on the processing

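No paired analysis was possible because the columns carry no replicate numbers that match the titles. Akh in WT Ecc15, and AstA, AstC, Capa, Dh31, Eh, Hug, ITP, Ptth, SIFa and Tk in PGRP-LB Ecc15 against WT control, kept their direction under the 14 alternatives within a table. Other members did not always: in the latter comparison 13 were above 0, 6 under quantile normalization and 18 without WT control S1. SIFa, Dh31 and Tk kept their calls against WT control under all of them. The number of genes higher in WT Ecc15 was 16, 30 in the joint fit of 9 libraries and 0 to 19 with a library left out. It was 0 without WT control S1, WT Ecc15 S1 or WT Ecc15 S2, where 766, 403 and 425 genes were higher before adjustment at 0.05. Leaving out WT control S2 gave 6. In PGRP-LB Ecc15 against WT control 1292 genes were higher (742 to 1059 with a library left out) and 838 lower (387 to 673), with 1298 lower under quantile normalization and 1337 in the joint fit. The share of calls that were higher was 60.7%, and 44.8% under quantile normalization, which moved the median of all genes to -0.092. Members higher numbered 1 to 3 and members lower 2 to 5 with a library left out. Against WT Ecc15 1281 genes were higher (798 to 1462) and 936 lower (555 to 1088), members higher were 1 to 2 and members lower 3 to 10, and quantile normalization left 1 member higher and 43.7% of calls higher, against 57.8%. The cause of these shifts was not tested. Where a library is left out, fewer samples enter the fit. Depth limits the members at 0 and RYa.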

Other observations

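The mutated gene PGRP-LB lies on chromosome arm 3R, and 2 of the called members lie near it in the BDGP6 annotation, Tk at 0.543 Mb and Hug at 1.07 Mb between midpoints. Of the 4 tested members within 2 Mb, Dh44 (1.81 Mb) and CCHa2 (1.94 Mb) were not called. Among all tested genes within 2 Mb on 3R, 84 of 505 (16.6%) were called in PGRP-LB Ecc15 against WT control, 34 higher and 50 lower. On 3R beyond 2 Mb 15.7% of 2601 genes were called, 251 higher and 157 lower. On other arms 16% of 9663 genes were called, 961 higher and 587 lower. These shares of all genes were thus close, but most calls near PGRP-LB were lower and most elsewhere were higher. Of the members, 2 of 4 (50%) were called within 2 Mb, 2 of 11 (18.2%) on 3R beyond it and 4 of 19 (21.1%) on other arms. This window was chosen after the values were seen, and no test was made of it.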
